A study of Triticum aestivum with 16 samples.

Results

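VRN1, FUL2 and FUL3 are related MADS-box genes of the FRUITFULL group, and bread wheat carries each on its A, B and D subgenomes. The 9 copies were taken by identifier from the 107891 wheat gene identifiers in the tables, and all 9 were listed in every library. VRN1 is carried by TraesCS5A02G391700, TraesCS5B02G396600 and TraesCS5D02G401500, called VRN1-5A, VRN1-5B and VRN1-5D below. The other copies form a triad of TraesCS2A02G174300, TraesCS2B02G200800 and TraesCS2D02G181400 and a triad of TraesCS2A02G261200, TraesCS2B02G281000 and TraesCS2D02G262700. Neither the files nor the reference gene table pair these identifiers with names. It was not settled which of the triads on chromosome group 2 is FUL2 and which is FUL3, so both are called by identifier.

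VRN1 encodes a transcription factor that promotes the change from vegetative to reproductive growth. In winter and semi-winter wheat its transcript is low in young plants and accumulates during long cold, a process called vernalization. FUL2 and FUL3 act partly in the same way as VRN1 in the change of the shoot apex to a spike. SVP1 and VRT2, of the same wide gene family, are expressed in the vegetative apex and are lowered as VRN1 and FUL2 rise. FT1 encodes the mobile flowering signal, and PPD1 is a regulator of the response to day length.

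Messenger RNA was sequenced from 8 kinds of sample with 2 libraries each, 16 in all. Those of the cultivar AiKang58 (AK58) were axillary buds, shoot apices, leaves and roots. The buds, of 1.0 to 2.0 cm, came from plants of 6 weeks that had spent 30 days at 4 °C. The other AK58 tissues came from plants of 2 weeks with no cold named in the labels. Those of the cultivar Zhengmai7698 (ZM7698) were axillary buds of 1.0 to 2.0 cm and shoot apices of M6, a line with all copies of TaSPL7 and TaSPL15 mutated (hexa-mutant), and of the wild type (WT), all at 2 weeks and with no cold named in the labels. By the labels, the AK58 bud therefore differs from the other tissues in age and in cold as well as in tissue, and these cannot be told apart. Whether replicates came from separate plants is not stated, so a p-value here speaks of the scatter between libraries, which may be technical. In whole tissue, fewer cells that express a gene and less RNA per cell cannot be told apart. The mutation of the TaSPL7 and TaSPL15 copies was not checked in the reads.

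The AK58 values are normalised reads, whole reads divided by 1 factor per library, and are not corrected for gene length. They correspond to 51497044 to 79585209 reads per library. The ZM7698 values are TPM, scaled for transcript length and library total, their depth is unknown, and the sets were never compared on 1 scale. The root replicates of AK58 stood apart from each other, with a correlation across genes of 0.779 on the log2 scale, against 0.9551 to 0.9765 in bud, apex and leaf. The 3 copies of TB1, a bud and meristem gene used as the marker of these tissues, were above 0 in every bud and apex library of both cultivars and at 0 in every AK58 leaf and root library. Names of TB1, SVP1, VRT2, FT1 and PPD1 copies rest on published identifiers alone.

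The copies differed in the AK58 tissue that held their reads: the bud for the 3 VRN1 copies, the apex for TraesCS2A02G174300 and TraesCS2B02G200800, and the root for TraesCS2A02G261200. Of the 72 values of 9 copies in 8 AK58 libraries, 24 were above 0, and 12 of these were in the 18 bud values. The apex held 8, the leaf 2 and the root 2. Copies on chromosome group 5 reached 1536 normalised reads, whereas the highest value of any copy on chromosome group 2 was 15.1. TraesCS2D02G181400 had 0 reads in all 8 AK58 libraries, a count that allows at most 3 reads in each (counting error only).

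**Figure D1:**
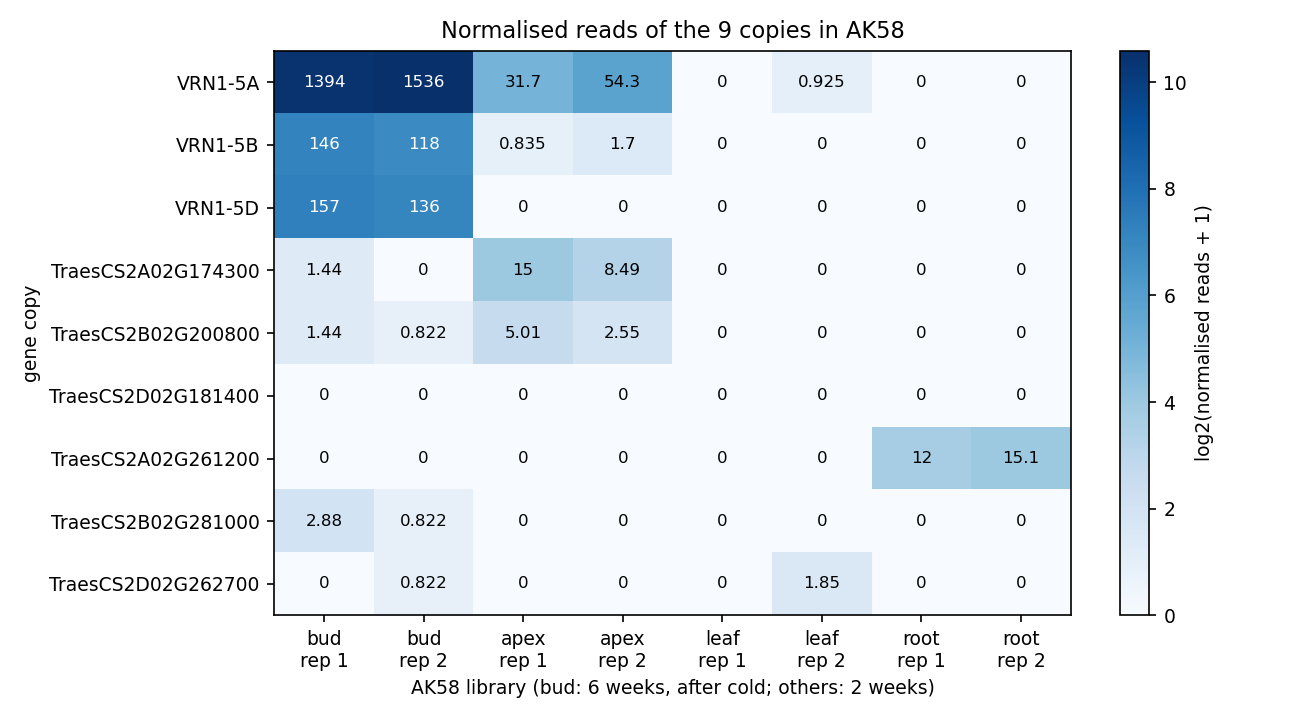
Normalised reads of the 9 gene copies (rows) in the 8 AK58 libraries (columns, 2 per tissue), with the value printed in each cell and its log2 after adding 1 as the shade. VRN1-5A reaches 1394 and 1536 in the bud, the copies of chromosome group 2 reach at most 15.1, and most cells are at 0.

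VRN1-5A was the copy with the most reads. It had 1394 and 1536 normalised reads in the bud libraries (1935 and 1870 reads), 31.7 and 54.3 in the apex (38 and 64 reads), 0 and 0.925 in the leaf (0 and 1 read) and 0 in both root libraries. The tissues did not overlap between bud and apex, or between apex and either of leaf and root. With 2 libraries a tissue this is a description, and the share of all identifiers that separate in this way was not counted. With respect to the other genes above 0 in the same library, and without correction for length, VRN1-5A was higher than 86.6% and 89.0% of them in the bud and than 25.8% and 32.0% in the apex.

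VRN1-5B had 146 and 118 normalised reads in the bud libraries (202 and 144 reads), 0.835 and 1.70 in the apex (1 and 2 reads), and 0 in every leaf and root library. VRN1-5D had 157 and 136 in the bud libraries (218 and 165 reads) and 0 in all apex, leaf and root libraries. Both copies were thus read in the bud, with a trace of VRN1-5B and no read of VRN1-5D in the apex.

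The first comparison asked how these genes differed between the AK58 bud and the apex. A gene was called when its Benjamini-Hochberg adjusted p in limma was under 0.05 and its absolute log2 fold change, on log2 of the normalised reads + 1, was at least 1. Only identifiers with at least 10 normalised reads in at least 2 libraries were tested, and 4 of the 9 copies passed this filter: VRN1-5A, through the bud and also the apex, VRN1-5B and VRN1-5D, through the bud alone, and TraesCS2A02G261200, through the root alone. The 3 VRN1 copies were called higher in the bud than in the apex, where 9.7% of all 69525 tested identifiers were called higher and 17.8% were called in either direction. VRN1-5A averaged 1465 ± 101 normalised reads in the bud and 43.0 ± 16.0 in the apex (SD, n = 2 each). The log2 fold change was 5.10 with an SE of 0.61 (limma adjusted p = 0.00375). Its ratio from summed reads was 34.0, with a 95% exact interval of 27.9 to 41.8 that covers counting error only.

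The B and D copies had so few apex reads that their folds depend on the added 1. For VRN1-5B the ratio of bud to apex from summed reads was 105, with an interval of 35.7 to 512 (limma adjusted p = 0.00110). VRN1-5D was at least 57.9-fold higher in the bud, with a floor of 3 reads in each apex library (limma adjusted p = 0.000830). The calls of VRN1-5A held with each AK58 library left out in turn. VRN1-5B and VRN1-5D were called in the 6 such fits that tested them, and without either bud library they did not pass the filter, so that 1 copy was called. Without the 2 root libraries, which disagree with each other, all 3 copies were called in bud over apex (limma adjusted p of at most 0.000446) and in bud over leaf (at most 0.000111), and VRN1-5A alone in apex over leaf (0.000181). That fit called many more of all identifiers than the full fit did. Of 64722 tested, it called 36.2% in bud over apex, 48.1% in bud over leaf and 57.9% in apex over leaf, in either direction.

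Against the leaf, the same 3 copies were called higher in the bud, where 11.2% of tested identifiers were called higher and 26.1% in either direction. VRN1-5A had a single read in the 2 leaf libraries, and the ratio of bud to leaf was 2909 with a 95% exact interval from 521.9 upwards to 1.149e+05 (limma adjusted p = 0.00176). VRN1-5B was at least 43.5-fold and VRN1-5D at least 48.2-fold higher in the bud than in the leaf (limma adjusted p = 0.00176 for both). Against the root, where 14.2% of tested identifiers were called higher in the bud and 34.1% in either direction, VRN1-5A was at least 578.5-fold higher (limma adjusted p = 0.000227). VRN1-5B was at least 52.1-fold and VRN1-5D at least 57.8-fold higher there (limma adjusted p = 0.000261 and 0.000206).

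In the apex of AK58, taken at 2 weeks with no cold named in the labels, VRN1-5A was above leaf and root. Its log2 fold change over leaf was 4.94 ± 0.61 (SE; limma adjusted p = 0.00204). With a single leaf read this value depends on the number added before the logarithm, and it was 7.02 with 0.1 added and 3.10 with 5 added. The ratio of apex to leaf from summed reads was 85.5, with a 95% exact interval of 15.0 to 3411. VRN1-5A was at least 17.0-fold higher in the apex than in the root (limma adjusted p = 0.00137). It was the 1 copy called higher in each of these comparisons, where 20.1% (over leaf) and 14% (over root) of tested identifiers were called higher, and 40.4% and 34.2% in either direction. VRN1-5B did not pass, with a log2 fold change of 1.15 ± 0.44 over both leaf and root (SE; limma adjusted p = 0.0763 and 0.0862). It rests on 3 apex reads against 0, so the value is set by the added 1: it was 0.32 with 5 added, and 3.70 with 0.1 added, where limma called it over both tissues (adjusted p = 0.00611 and 0.00605). Limma also called it over both without the intensity trend (adjusted p = 0.0319 and 0.0351) and over leaf with only the compared groups fitted (0.0235), whereas edgeR called it over neither (adjusted p of at least 0.101). VRN1-5A passed with each library left out, and also in edgeR on the recovered reads (adjusted p = 0.00618 over leaf, with 35% of identifiers called, and 0.00512 over root, with 29.3%). The order of VRN1-5A was therefore bud, apex, then leaf and root, and the last 2 did not differ beyond their spread, with a log2 fold change of leaf over root of 0.47 ± 0.61 (SE; limma adjusted p = 0.596). The median of all tested identifiers was 0.136 (log2) for apex over leaf and -0.186 for leaf over root, small beside the changes of VRN1-5A over leaf.

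**Figure D2:**
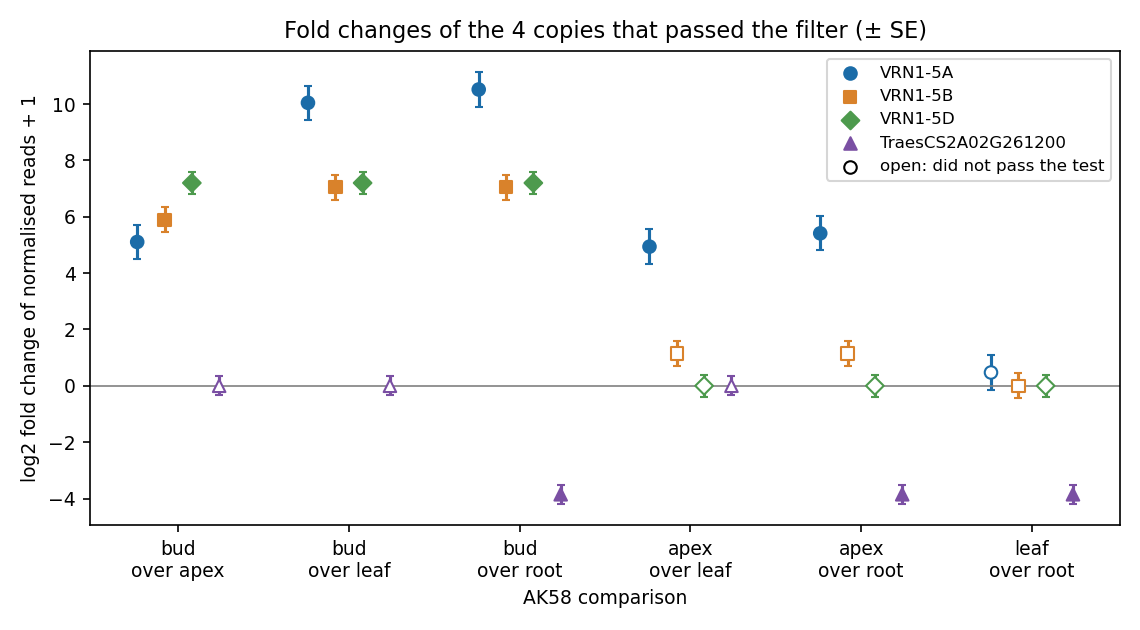
Log2 fold changes on normalised reads + 1 (y axis, bars ± SE from limma) of the 4 copies that passed the expression filter, in the 6 AK58 comparisons (x axis). Filled symbols passed the test and open symbols did not. The 3 VRN1 copies are filled in every comparison of the bud, VRN1-5A also in apex over leaf and apex over root, and TraesCS2A02G261200 is filled below 0 in the 3 comparisons with root.

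The copies of VRN1 did not share the reads evenly. In the bud libraries VRN1-5A gave 82.2% and 85.8% of the VRN1 reads, VRN1-5B 8.58% and 6.61%, and VRN1-5D 9.26% and 7.57%. The exact 95% binomial intervals of the A share were 80.6% to 83.7% in bud replicate 1 and 84.3% to 87.3% in bud replicate 2, so the replicates differed by more than counting error. In the apex libraries the A share was 97.4% of 39 reads and 97.0% of 66 reads, with intervals of 86.5% to 99.9% and 89.5% to 99.6%. The mean A share was 84.0% ± 2.58 in the bud and 97.2% ± 0.332 in the apex (SD, n = 2 each), a difference of -13.2 percentage points. The libraries did not overlap, but the exact permutation test cannot go below p = 0.333 with 2 libraries against 2, and that was its value (two-sided). These shares are not corrected for the length of the copies, and reads that match several near-identical copies may have been split between them.

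**Figure D3:**
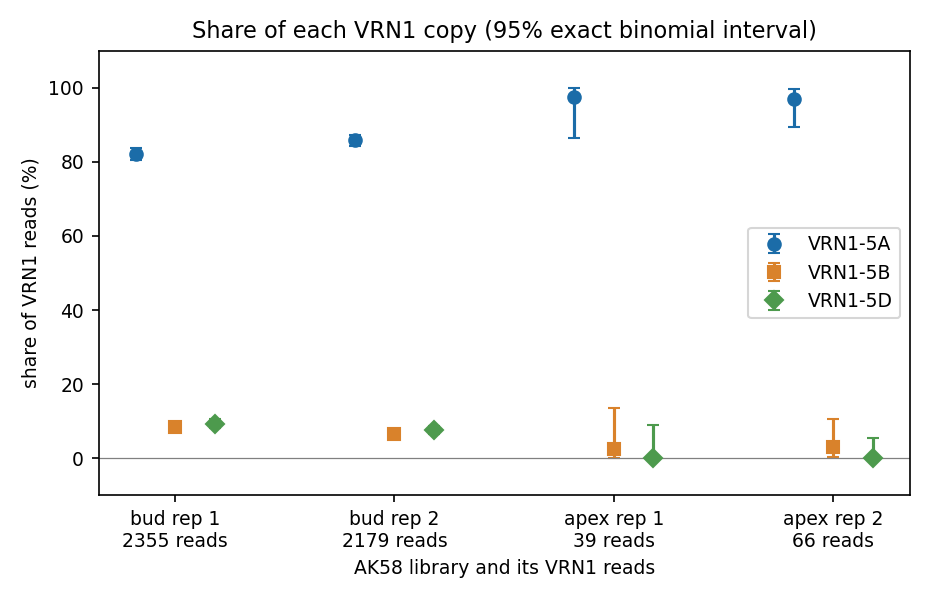
Share of the VRN1 reads (y axis, percent) from each VRN1 copy in the AK58 bud and apex libraries (x axis, with the number of VRN1 reads in each). Bars are 95% exact binomial intervals and cover counting error only. The A copy stands at 82.2% and 85.8% in the bud and at 97.4% and 97.0% in the apex, where the intervals are wide.

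In the triad of TraesCS2A02G174300 the reads lay in the apex. TraesCS2A02G174300 had 1.44 and 0 normalised reads in the bud libraries (2 and 0 reads), 15.0 and 8.49 in the apex (18 and 10 reads), and 0 in every leaf and root library. TraesCS2B02G200800 had 1.44 and 0.822 in the bud libraries (2 and 1 reads), 5.01 and 2.55 in the apex (6 and 3 reads), and 0 in leaf and root. Both were lower in each bud library than in each apex library. This rests on few reads, and the share of all identifiers with such a separation was not counted.

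Neither copy passed the expression filter, so neither entered the fit that gives the calls above. From summed reads, the apex level of TraesCS2A02G174300 was 15.3 times the bud level, with a 95% exact interval of 3.87 to 133. For TraesCS2B02G200800 it was 3.29 times, with an interval of 0.821 to 18.9 that includes equal levels. Without the filter, limma called TraesCS2A02G174300 lower in the bud than in the apex (log2 fold change of -2.98 ± 0.55, SE; adjusted p = 0.0190), where 14.4% of 87193 identifiers were called in either direction. In edgeR on the recovered reads without the filter it did not pass (adjusted p = 0.306). Against leaf and root, limma without the filter called both copies higher in the apex (adjusted p = 0.00538 and 0.00510 for TraesCS2A02G174300, and 0.0104 and 0.0102 for TraesCS2B02G200800), where 32.7% (leaf) and 29.1% (root) of identifiers were called, and edgeR called neither (adjusted p of at least 0.103 and 0.165).

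In the other triad of chromosome group 2, TraesCS2A02G261200 had 0 reads in all bud, apex and leaf libraries and 12.0 and 15.1 normalised reads in the root libraries (16 reads in each). The root was at least 5.84-fold above the bud, at least 5.35-fold above the apex and at least 4.45-fold above the leaf. It was called lower in bud than in root (limma adjusted p = 0.000616), where 19.8% of tested identifiers were called lower. It was also called lower in apex than in root (limma adjusted p = 0.000615; 20.1% of identifiers lower) and in leaf than in root (limma adjusted p = 0.000801; 11.4% lower and 23.5% in either direction). In edgeR on the same identifiers the adjusted p was 0.0461 for bud over root, 0.0464 for apex over root and 0.0625 for leaf over root, so the last call was lost. The edgeR test called 29% of identifiers in bud over root, 29.3% in apex over root and 18.7% in leaf over root. Without the filter edgeR called none of the 3 (adjusted p of at least 0.0958). Without either root library the copy did not pass the filter. It was tested only because of its root reads, so its 3 calls are not independent of the filter.

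The homoeologs of TraesCS2A02G261200 did not follow it into the root. TraesCS2B02G281000 had 2.88 and 0.822 normalised reads in the bud libraries (4 and 1 reads) and 0 elsewhere. TraesCS2D02G262700 had 0 and 0.822 in the bud (0 and 1 read), 0 in the apex, 0 and 1.85 in the leaf (0 and 2 reads) and 0 in the root. At 5 and 3 reads over all AK58 libraries, these copies had too few reads for a firm comparison of tissues. For TraesCS2B02G281000 in bud over root the methods differed. Limma without the filter gave an adjusted p of 0.0485, under the threshold of 0.05, where it called 29% of identifiers. The adjusted p in edgeR was 0.320.

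The genes whose profile was most like that of VRN1-5A were looked for among 46433 identifiers with a mean of at least 50 normalised reads in the bud. Likeness was Pearson's r of log2 of the normalised reads + 1 over the 8 AK58 libraries, given as a description. It measures the shape of a profile and not its height, and with 4 tissues it rests on few independent points. TraesCS7D02G379100 had an r of 0.997 and averaged 623.6 normalised reads in the bud, 23.6 in the apex, 0.925 in the leaf and 0 in the root. TraesCS5A02G329100, with an r of 0.997, averaged 11276 in the bud and 147 in the apex and was at 0 in leaf and root. TraesCS4B02G393300, with an r of 0.995, averaged 1095 in the bud and 46.0 in the apex and was also at 0 in leaf and root. An r of at least 0.9 was reached by 958 identifiers. VRN1-5B had an r of 0.935 with VRN1-5A, which 405 of the 46433 exceeded, and VRN1-5D an r of 0.866, which 1682 exceeded.

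For TraesCS2A02G174300 the most alike of 48031 identifiers with a mean of at least 50 in the apex were TraesCS1D02G450300 (r = 0.985), TraesCS3B02G596500 (r = 0.983) and TraesCS7A02G306400 (r = 0.982). Of these, TraesCS3B02G596500 averaged 1.13 normalised reads in the bud, 80.3 in the apex and 0 in leaf and root, whereas TraesCS1D02G450300 was at 1135 in the bud, 1858 in the apex, 1018 in the leaf and 1044 in the root. The root pattern of TraesCS2A02G261200 was common: 532 of 52656 identifiers reached an r of at least 0.99 with it. The 3 most alike were TraesCS7D02G479100, TraesCS2D02G137500 and TraesCS7A02G084900, which had 0 reads in the other tissues.

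The other flowering genes were read from a list of 11 copies of SVP1, VRT2, FT1 and PPD1, of which 8 passed the filter in AK58. In bud over apex 3 of them fell and 0 rose, where 8.12% of tested identifiers fell, with a median log2 fold change of -1.43, against -0.066 over all tested identifiers. The copies that fell were VRT2-7A, at 935 ± 66.0 normalised reads in the bud and 3997 ± 1109 in the apex, VRT2-7B, at 1526 ± 96.3 and 6224 ± 1545, and SVP1-6A, at 1053 ± 152 and 3222 ± 623 (SD, n = 2 each). For VRT2-7D the log2 fold change was -1.55 ± 0.49 (SE; limma adjusted p = 0.0800), SVP1-6B one of -0.97 ± 0.26 (SE; limma adjusted p = 0.0489, under the required fold) and SVP1-6D one of 0.23 ± 1.54 (limma adjusted p = 0.966). The number of calls changed with single libraries. Limma called 0 of the 8 without apex replicate 2, bud replicate 1 or bud replicate 2, and 2 (VRT2-7A and SVP1-6A) without apex replicate 1 or either leaf library. In the fits with 0 calls the log2 fold changes stayed near those of the full fit, from -2.14 to -1.78 for VRT2-7A, from -2.07 to -1.75 for VRT2-7B and from -1.75 to -1.41 for SVP1-6A. Without one or both root libraries it called 5 lower, VRT2-7D and PPD1-2D being added, as it did with bud and apex alone in the fit. It called 4 lower, with VRT2-7D, after median centring or quantile normalization. In edgeR on the recovered reads the same 3 copies fell.

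In bud over leaf 3 copies of this list rose and 1 fell, where 11.2% of tested identifiers rose and 14.9% fell. Those that rose were PPD1-2A, VRT2-7A (log2 fold change of 1.16, limma adjusted p = 0.0461) and VRT2-7B (1.65, 0.0428), and PPD1-2D fell. VRT2-7D did not pass (0.69, limma adjusted p = 0.326). In the full fit VRT2-7A and VRT2-7B were thus called lower in the bud than in the apex but higher than in the leaf, the latter close to the threshold. In bud over root 5 rose and 1 fell, where 14.2% rose and 19.8% fell. The 3 VRT2 copies, SVP1-6B and PPD1-2A rose there, and PPD1-2D fell. PPD1-2A stood at 169 ± 4.42 normalised reads in the bud, 151 ± 19.2 in the apex, 6.36 ± 2.78 in the leaf and 0.941 ± 1.33 in the root (SD, n = 2 each). Its log2 fold change in bud over apex was 0.17 ± 0.70 (SE; limma adjusted p = 0.920). PPD1-2D stood at 59.5 ± 0.631 in the bud, 149 ± 1.06 in the apex, 484 ± 62.5 in the leaf and 195 ± 73.9 in the root (SD, n = 2 each), with a limma adjusted p of 0.0538 in bud over apex. FT1 gave no read outside the bud, and there FT1-7B had 0 and 1.64 normalised reads.

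The genes beside VRN1 were also read, in the order of their identifiers, which was decided once values were known. Of the 10 identifiers nearest to each copy (5 on each side), 7 were tested beside VRN1-5A, 8 beside VRN1-5B and 8 beside VRN1-5D, and 3 were called between bud and apex beside each copy, where 17.8% of all tested identifiers were called. The identifier next to VRN1-5A, TraesCS5A02G391800, had between 14.8 and 15.1 normalised reads in the bud libraries and 0 in the apex (limma adjusted p = 0.0504). The 2 sides held both directions: TraesCS5A02G391400 stood at 17.3 to 19.5 in the bud and 100.3 to 104.4 in the apex (log2 fold change of -2.42; limma adjusted p = 0.0383), and TraesCS5A02G391900 at 757.5 to 797.7 in the bud and 190 to 263 in the apex (log2 fold change of 1.79; limma adjusted p = 0.00659). The 3 called changes beside VRN1-5A were smaller in size than its own log2 fold change of 5.10. Larger than these, though not called, were those of TraesCS5A02G391800, at 4 with 0 in the apex, and TraesCS5A02G391200, at 2.73 (limma adjusted p = 0.126).

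In ZM7698 the 9 copies were at or near 0 in both genotypes and both tissues. Of 72 values, 63 were listed at 0, and the highest was 0.0288 TPM. VRN1-5A was listed at 0.0104 and 0 TPM in the M6 bud libraries, 0.00420 and 0.0156 in the WT bud, 0.0288 and 0 in the M6 apex, and 0 in both WT apex libraries. All 8 libraries listed VRN1-5B and VRN1-5D at 0, as they did the 3 copies of the TraesCS2A02G261200 triad. TraesCS2A02G174300 was listed at 0.00335 TPM in 1 M6 apex library and 0.00555 in 1 WT apex library, TraesCS2B02G200800 at 0.00516 in 1 M6 bud library and 0.00152 in 1 WT apex library, and TraesCS2D02G181400 at 0.00236 in 1 WT apex library. The replicates did not repeat any of these traces except that of VRN1-5A in the WT bud.

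No copy reached the 1 TPM in 2 libraries that the ZM7698 filter required, so 0 of 9 were tested for the effect of M6 or of tissue. Among the 50878 identifiers that were tested, 0.134% were called in M6 over WT in the apex, 0.147% in M6 over WT in the bud, 2.5% in WT bud over WT apex and 0.0884% in M6 bud over M6 apex. Limma called 0% (0 of 50878, with 4105 at an unadjusted p under 0.05) for a difference of the M6 effect between bud and apex. Without the filter, 4 copies could be fitted in 5 contrasts each. Limma called 0 of the 20, with 0 at an unadjusted p under 0.05 and a smallest adjusted p of 0.848, and log2 fold changes of at most 0.0272 in size. At these levels a difference between M6 and WT was not detectable, which does not show that there was none.

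The same ZM7698 libraries held the meristem marker. TB1 copies summed to 28.1 to 38.5 TPM in the M6 bud, 19.8 to 23.1 in the WT bud, 2.92 to 3.87 in the M6 apex and 3.09 to 5.24 in the WT apex. In M6 bud over WT bud no TB1 copy was called. The log2 fold changes of TB1-4A, TB1-4B and TB1-4D were 0.72, 0.52 and 0.46 (limma adjusted p = 0.268, 0.486 and 0.526). Within each library, TB1-4B was higher than 90.5% to 92.6% of the genes above 0 in the M6 bud and than 87.0% to 88.4% in the WT bud. TB1-4B was the highest copy: TB1-4A was higher than 72.3% to 76.3% in the M6 bud and 60.7% to 63.8% in the WT bud, and TB1-4D than 43.0% to 51.0% in the M6 bud and 36.8% to 40.6% in the WT bud. VRN1-5A was higher than at most 3.71% in any ZM7698 library. In AK58, where ranks are not corrected for length, the order of the genes was the other way in the bud: VRN1-5A was higher than 86.6% to 89.0% of genes and TB1-4B than 21.4% to 29.3%. The cultivars differ in the age and cold treatment of the buds and in the unit of the values, so these ranks stand side by side without a test.

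**Figure D4:**
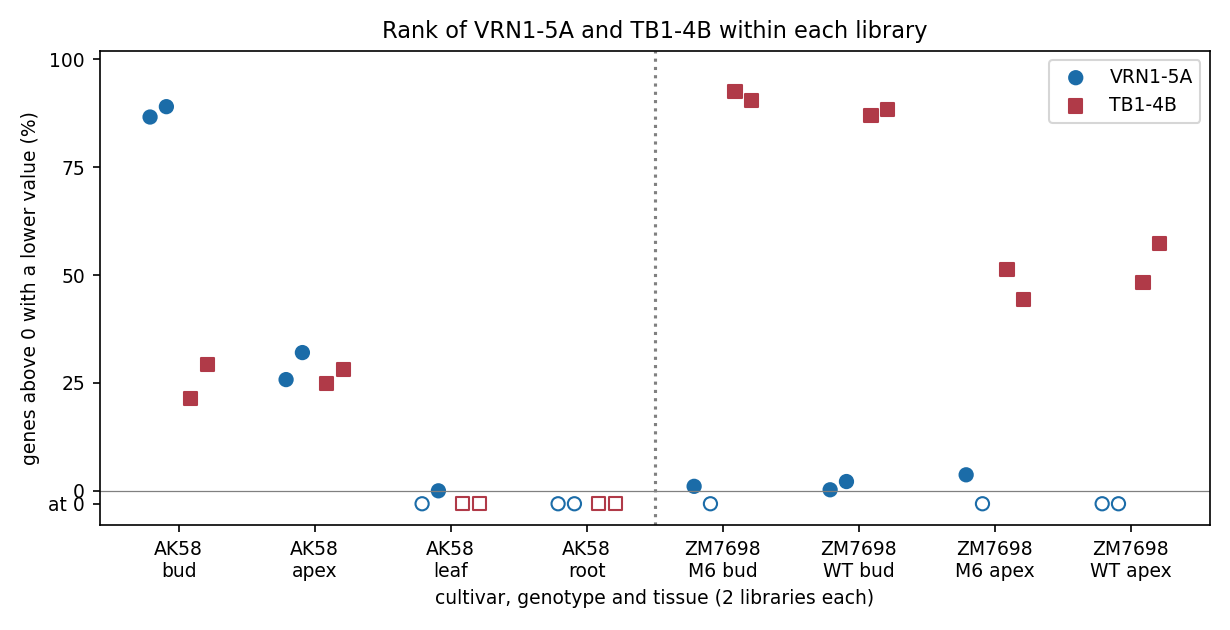
Share of genes above 0 in the same library that had a lower value (y axis, percent) for VRN1-5A (circles) and TB1-4B (squares), in each of the 2 libraries of the 8 groups (x axis). Open symbols below the line are libraries where the gene is at 0. VRN1-5A stands at 86.6% and 89.0% in the AK58 bud and at 3.71% or less in ZM7698, where TB1-4B lies between 44.2% and 92.6%.

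The other genes of the flowering list were measured in ZM7698, with 7 of 11 copies tested. In M6 over WT 1 copy rose and 0 fell in each tissue, SVP1-6D in both. SVP1-6D passed the filter of 1 TPM through the M6 libraries alone, as its WT values were at most 0.395 TPM. Its calls are therefore not independent of the filter. It had 14.5 and 9.07 TPM in the M6 bud libraries and 0.154 and 0.268 in the WT bud, and 9.83 and 9.51 TPM in the M6 apex and 0.186 and 0.395 in the WT apex. M6 was above WT in every library of both tissues, by a log2 fold change on TPM + 1 of 3.37 ± 0.21 in the bud and 3.05 ± 0.21 in the apex (SE; limma adjusted p = 0.00519 and 0.00852). Leaving out each of the 4 apex libraries in turn ended the apex call (limma adjusted p between 0.0624 and 0.161), with log2 fold changes of 2.93 to 3.17. The bud call was lost without either WT bud library (0.0883 and 0.0674), with log2 fold changes of 3.30 and 3.44, and with only the M6 and WT bud in the fit (0.145). In WT bud over WT apex and in M6 bud over M6 apex limma called 0 of the 7, with 2 and 0 at an unadjusted p under 0.05.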

How the data were processed

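Per the labels' protocols, libraries were made with a stranded messenger RNA kit. The submitters' processing notes name Trimmomatic, HISAT2 2.0.5 and StringTie 1.3.3b. The genome build and the counting program of the AK58 values are not given in the sources used here. For ZM7698 the authors deposited TPM. The deposited AK58 values, though named TPM, are a normalised signal: in each library 100% of values were whole multiples of 1 read's worth, within 0.001 reads, which gave the recovered reads. Of the 120744 identifiers, 0 were found in the reference gene table, and the planned promoter search was not run.

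AK58 and ZM7698 (8 libraries each) had separate limma fits (version 3.58.1, R 4.3.3). These used log2(value + 1), a prior variance that follows intensity and two-sided p-values adjusted over all tested identifiers. Filters were 10 normalised reads or 1 TPM in 2 libraries. Recovered reads were also tested with the quasi-likelihood test of edgeR 4.0.16, which called 8632 identifiers in bud over apex, against 12392 by limma. Ratios and shares carry 95% exact intervals (SciPy 1.17.1). The fit of edgeR without a filter and the genes beside VRN1 were added after the data were seen. The permutation test of the A share was not planned either, as the plan had the shares as description only. The members, lists and tests were chosen with earlier results of these data known. All 9 copies are named, with the 3 identifiers most alike to the leading copy of each triad and the called copies of the flowering list. VRT2-7D, SVP1-6B, SVP1-6D, PPD1-2A, PPD1-2D and FT1 are given beside them, chosen after their values were seen. Alternatives were 0.1 or 5 added before the logarithm, dropping the filter, raising it, median centring, quantile normalization, no trend, the contrasted groups alone, no root libraries, a replicate block and each library left out.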

Additional observations from a re-analysis of the deposited data

How the results depend on the processing

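The 3 VRN1 copies stayed called in each comparison of the AK58 bud under every setting tried in which they were tested, edgeR included. The B and D copies passed the filter through the bud alone and were not tested when a bud library was left out. Their calls under the filter are therefore not independent of it, though both copies were also called without a filter. The number of called copies in apex over leaf, 1 as reported, was 2 with 0.1 added, 2 without the intensity trend, 2 with the contrasted groups alone and 3 without a filter. In apex over root, 2 as reported, it was 3 with 0.1 added, 3 without the intensity trend, 4 without a filter, 1 with the stricter filter and 1 in edgeR without a filter. In leaf over root, 1 as reported, it was 0 with the stricter filter and 0 in edgeR with the same filter or none. Of all identifiers, the reported fits called 40.4%, 34.2% and 23.5% in these 3 comparisons. Limma without a filter called 32.7% in apex over leaf and 29.1% in apex over root. In edgeR without a filter it was 21.1% in apex over root and 13.7% in leaf over root, and with the same filter 18.7% in leaf over root. For the other settings named here this share was not counted. With single libraries left out the counts ranged from 1 to 3 in bud over apex and in bud over leaf, from 2 to 4 in bud over root, from 1 to 2 in apex over root, from 0 to 1 in leaf over root, and stayed at 1 in apex over leaf. They fell without a bud library or, for root, without a root library, because fewer copies then passed the filter. The A share of VRN1 reads in the bud was 82.2% and 85.8% in the single libraries. The count of called copies in ZM7698 was 0 under each setting run there. The replicate numbers share no stated batch, and differences between replicates 1 and 2 correlated between groups from -0.118 to 0.43 in AK58 and from -0.308 to 0.164 in ZM7698. With the replicate block the counts of called copies were unchanged, at 3 in bud over apex, 3 in bud over leaf and 4 in bud over root. Depth limits the copies on chromosome group 2, which rest on at most 32 reads each in AK58.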
